A study of Rattus norvegicus with 13 samples.

Results

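The genes described here are 9 genes of fatty acid synthesis in the ventricular zone (VZ) of newborn rats, taken as a named set: Thrsp, Srebf1, Acly, Me1, Acaca, Fasn, Scd, Elovl5 and Elovl6. Each of the 9 had exactly 1 of the 14716 rows of the expression table, and all 9 had a mean of at least 10 normalized counts, as did 14606 rows in all. RNA was sequenced from the posterior VZ of 13 male Long Evans pups on postnatal day 2 (PN2), 1 pup from each litter. The 7 control pups were born to dams given drinking water with 0 ppm propylthiouracil (PTU) and were euthyroid by their labels. The 6 PTU exposed pups were born to dams given 3 ppm PTU, an inhibitor of thyroid hormone synthesis, from early gestation into lactation, and both these dams and their pups are described as hypothyroid. The VZ was collected by laser capture from the pseudostratified epithelium that lines the ventricle, it holds several cell types, and the RNA was partly degraded by the study's own account.

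Cells make fatty acids from citrate. ATP citrate lyase (Acly) releases acetyl-CoA in the cytosol, acetyl-CoA carboxylase (Acaca) turns it into malonyl-CoA, and fatty acid synthase (Fasn) joins these units into palmitate with NADPH, part of which comes from malic enzyme (Me1). Elovl5 and Elovl6 lengthen fatty acids, stearoyl-CoA desaturase (Scd) puts in a double bond, Srebf1 encodes the transcription factor SREBP-1 that drives this programme, and Thrsp (also called Spot 14) encodes a small protein that promotes lipogenesis and is known in liver as a gene that responds to thyroid hormone. In the developing brain, newly made fatty acids supply membranes, and fatty acid synthesis has been tied to the proliferation of neural progenitors.

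Among the 9 genes, the 2 regulators, Thrsp and Srebf1, were the ones with the largest differences, and both were lower in PTU exposed pups. Thrsp averaged 272 ± 24.6 normalized counts in controls (SD, n = 7) and 192 ± 34.7 in PTU exposed pups (SD, n = 6), and Srebf1 averaged 2314 ± 408 and 1554 ± 347. The 7 enzymes lay between 86.9 and 122% of the control mean. None of the 9 differences passed the adjusted p of at most 0.05 in limma, which called 0 of 14606 rows (0%), so no gene below is described as changed. At an unadjusted p under 0.05, limma counted 2 of the 9 genes, both lower, where it counted 2383 of all rows (16.3%), 1198 of them lower (8.20%) and 1185 higher (8.11%). The 9 genes were higher in 4 cases and lower in 5, and their median log2 fold change was -0.05, beside 0.00 over all rows tested. That split depended on the scaling: with equal totals for all pups, which moved the median of all rows to 0.20, the 9 genes were higher in 6 cases and lower in 3.

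The bases just upstream of the start sites of Thrsp and Srebf1 are shown because these are the genes whose groups stood furthest apart. They are the 250 bases before the start site that RefSeq gives on GRCr8, a later build than the one the reads were aligned to, each on the minus strand and written 5′ to 3′. Thrsp lies downstream of chr1:161138965-161139214. Srebf1 has 2 start sites, downstream of chr10:45529165-45529414 and of chr10:45519011-45519260, and its row could not be tied to either. Capitals mark the inverted CCAAT box (ATTGG or CCAAT) and the Sp1 box (GGGCGG or CCGCCC), both binding sites known from promoters of lipid genes.
Thrsp: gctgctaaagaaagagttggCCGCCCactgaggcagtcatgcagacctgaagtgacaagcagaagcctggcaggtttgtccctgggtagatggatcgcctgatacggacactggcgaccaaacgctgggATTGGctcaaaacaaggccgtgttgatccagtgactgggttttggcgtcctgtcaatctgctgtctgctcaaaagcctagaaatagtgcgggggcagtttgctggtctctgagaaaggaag
Srebf1, first start site: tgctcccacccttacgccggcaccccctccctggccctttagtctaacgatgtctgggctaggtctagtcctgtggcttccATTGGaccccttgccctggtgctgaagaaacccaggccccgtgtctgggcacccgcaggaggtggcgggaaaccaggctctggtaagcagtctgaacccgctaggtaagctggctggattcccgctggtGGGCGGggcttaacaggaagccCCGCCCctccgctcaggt
Srebf1, second start site: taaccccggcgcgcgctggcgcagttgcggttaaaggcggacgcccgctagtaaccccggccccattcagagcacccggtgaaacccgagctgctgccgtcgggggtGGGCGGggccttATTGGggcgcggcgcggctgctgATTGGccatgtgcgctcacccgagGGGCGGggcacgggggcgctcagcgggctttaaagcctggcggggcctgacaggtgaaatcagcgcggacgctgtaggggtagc

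These windows hold 54% (Thrsp), 64% and 70.4% (Srebf1) G and C. On both strands, Thrsp has 1 ATTGG at position -121 from the start site and 1 GGGCGG at -230. Upstream entries were found for 6 of the 9 genes (Thrsp, Srebf1, Acly, Me1, Scd and Elovl5), in 7 windows. Fasn, Acaca and Elovl6 had none. ATTGG was found in 5 of the 7 windows and in 34.0% of 33469 windows of the same length. GGGCGG was likewise found in 5 of 7, and in 30.5% of all. An E-box (CACGTG) was found in 1 of 7, that of Elovl5, and in 5.59% of all. For the sterol regulatory element only the letters TCACNCCAC were searched, and they were found in 0 of 7 and in 0.974% of all. AGGTCA, the half-site of many nuclear receptors, was found in 0 of 7 and in 14.1% of all. Its direct repeat with 4 bases between the copies, the arrangement known for thyroid hormone receptors, was found in 0 of 7 and in 0.00299% of all. Only the exact repeat was searched, and 1 of 33469 windows held it, so its absence from these 7 carries no information. The matches overlap no other motif searched here, and they describe letters alone. A window without a match says nothing of sites elsewhere, or of sites within it that differ from the letters searched.

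Thrsp (ENSRNOT00000016540), the gene named for its response to thyroid hormone, was measured at 250, 283, 309, 248, 296, 249 and 270 normalized counts in control pups 1 to 7. In PTU exposed pups 1 to 6 it was measured at 154, 227, 220, 161, 166 and 222. The 2 groups did not overlap, with a gap between 227 and 248, and the exposed pups themselves lay in 2 sets, pups 1, 4 and 5 at 154 to 166 and pups 2, 3 and 6 at 220 to 227. Such a complete separation with the PTU exposed pups lower was found for 1 of the 9 genes and for 38 of the 14606 rows (0.260%), or 87 rows (0.596%) in either direction. The PTU mean was 70.5% of the control mean, and on the log2(normalized count + 1) scale, which slightly understates changes of low rows, the difference was -0.52 (SE 0.14, 95% interval -0.82 to -0.21, limma adjusted p = 0.140). An exact permutation test of this single gene over all 1716 regroupings of the pups gave p = 0.000583 (two-sided, unadjusted, 9 genes tested), the smallest p this design allows. With equal totals for all pups the difference was -0.32 and its exact permutation p 0.193. Thrsp is the lowest of the 9 rows, so counting matters most for it: counting error alone would give a coefficient of variation of 6.30% among controls and 6.96% among PTU exposed pups, and the pups varied by 9.04% and 18.1%. In bulk tissue such as this, fewer cells of a type and less RNA per cell cannot be told apart.

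Srebf1 (ENSRNOT00000047053), which encodes SREBP-1a and SREBP-1c from its 2 starts, was measured at 1840, 1857, 2675, 2327, 2927, 2119 and 2453 normalized counts in control pups 1 to 7. In PTU exposed pups 1 to 6 it was measured at 1001, 1466, 1522, 1862, 1987 and 1486. All 6 PTU exposed pups lay below the control mean and 4 of 6 below the lowest control pup, while PTU exposed pups 4 and 5 overlapped with control pups 1 and 2. The PTU mean was 67.2% of the control mean, and the log2 fold change was -0.59 (SE 0.15, 95% interval -0.90 to -0.28, limma adjusted p = 0.125). The exact permutation test gave p = 0.00583 (two-sided, unadjusted). The coefficient of variation of Srebf1 was 17.6% among controls and 22.3% among PTU exposed pups, and counting error alone would give 2.18% and 2.45%.

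**Figure D1:**
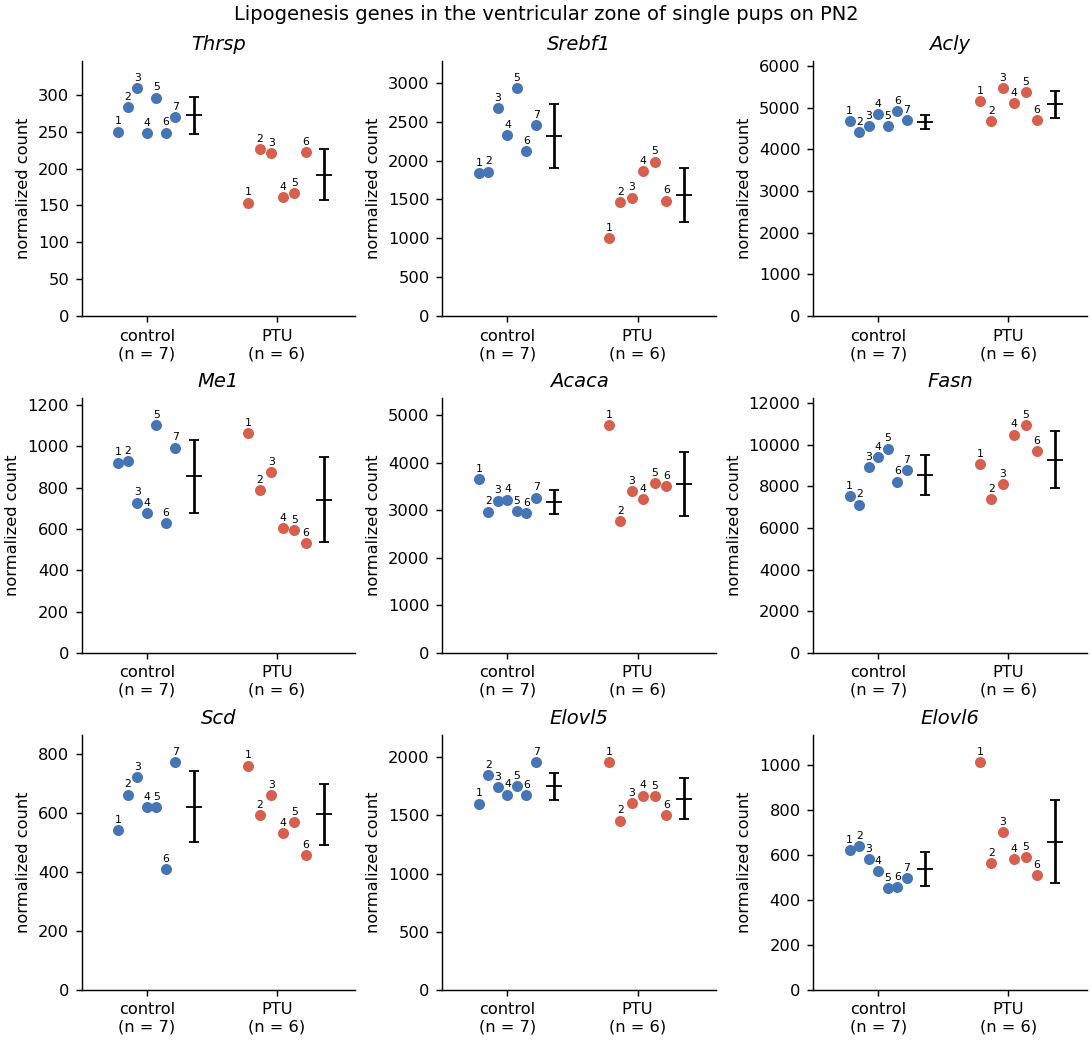
Normalized counts (y axis, from 0, a separate scale for each gene) of the 9 lipogenesis genes in each control pup (blue, n = 7) and each PTU exposed pup (red, n = 6); digits are replicate numbers, and the black bar is the group mean ± SD. All 6 PTU exposed pups sit below all controls for Thrsp, and PTU exposed pup 1 is the highest of 13 pups for Acaca, Elovl5 and Elovl6 and the lowest for Thrsp and Srebf1.

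Of the 2 genes that supply the building blocks and reducing power, Acly was slightly higher and Me1 lower in PTU exposed pups. Acly (ENSRNOT00000043172) lay between 4421 and 4911 in controls (median 4675) and between 4680 and 5465 in the exposed pups (median 5138). It was the most even of the 9 genes, varying by 3.67% among controls, and 4 of 6 PTU exposed pups lay above the highest control. Its log2 fold change was 0.12 (SE 0.07, 95% interval -0.02 to 0.26, limma adjusted p = 0.361), and the exact permutation test gave p = 0.0163 (two-sided, unadjusted), which with Thrsp and Srebf1 made 3 of 9 genes with an exact p under 0.05, where the same test counted 2234 of all 14606 rows (15.3%), 1099 lower (7.52%) and 1135 higher (7.77%). With equal totals for all pups, Acly had 0.32 and an exact permutation p of 0.0787, and the genes with an exact p under 0.05 were Srebf1 (lower, p = 0.0146) and Fasn (higher, p = 0.0291), where under that scaling 62 of all rows were counted lower (0.424%) and 1405 higher (9.62%).

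Me1 (ENSRNOT00000078977), also known as a gene that thyroid hormone raises in liver, lay between 629 and 1103 in controls (median 920) and between 532 and 1063 in the exposed pups (median 695). The groups overlapped widely, although 3 of 6 PTU exposed pups (4, 5 and 6) lay below the lowest control. Its log2 fold change was -0.22 (SE 0.17, 95% interval -0.57 to 0.14, limma adjusted p = 0.536; exact permutation p = 0.271), and it was -0.33 without PTU exposed pup 1, the highest of its group, and -0.13 without pup 6, the lowest. Under equal totals it was -0.016, and with the choroid plexus covariate -0.041.

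Acaca and Fasn carry the committed step and the synthesis of palmitate, and both overlapped between the groups. Acaca (ENSRNOT00000116202) lay between 2944 and 3659 in controls (median 3200) and between 2772 and 4786 in the exposed pups (median 3452). PTU exposed pup 1 was the highest and pup 2 the lowest of all 13, so the controls lay within the range of the exposed group. The log2 fold change was 0.14 (SE 0.10, 95% interval -0.07 to 0.36, limma adjusted p = 0.501; exact permutation p = 0.219), and it was 0.05 without PTU exposed pup 1 and 0.34 under equal totals (exact permutation p = 0.161).

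Fasn (ENSRNOT00000073321) lay between 7125 and 9810 in controls (median 8765) and between 7383 and 10940 in the exposed pups (median 9379). PTU exposed pups 4 and 5 lay above all controls, and the other 4 lay within the control range. The log2 fold change was 0.11 (SE 0.10, 95% interval -0.10 to 0.33, limma adjusted p = 0.601; exact permutation p = 0.301). The difference was 0.064 without PTU exposed pup 5, 0.072 without control pup 2 and 0.18 without PTU exposed pup 2, and under equal totals it was 0.32 (exact permutation p = 0.0291). As a fold, the interval of the difference runs from 0.931 to 1.26 times the control level.

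The enzymes that lengthen and desaturate fatty acids overlapped between groups as well. Elovl5 (ENSRNOT00000010409), which lengthens mainly polyunsaturated fatty acids, lay between 1603 and 1957 in controls (median 1745) and between 1455 and 1962 in the exposed pups (median 1637). Its log2 fold change was -0.09 (SE 0.08, 95% interval -0.27 to 0.08, limma adjusted p = 0.581; exact permutation p = 0.203), with 5 of 6 PTU exposed pups below the control mean and pup 1 above every control. The difference was -0.15 without PTU exposed pup 1, -0.061 without PTU exposed pup 2, -0.010 with the choroid plexus covariate and, with the sign turned, 0.11 under equal totals.

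Elovl6 (ENSRNOT00000014155), which lengthens palmitate to stearate, lay between 451 and 638 in controls (median 528) and between 508 and 1015 in the exposed pups (median 584). The value of 1015 was that of PTU exposed pup 1, and the next highest was 702. The log2 fold change was 0.26 (SE 0.15, 95% interval -0.05 to 0.58, limma adjusted p = 0.385; exact permutation p = 0.111). It was 0.13 without that pup, 0.46 under equal totals and 0.40 with the choroid plexus covariate.

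Scd (ENSRNOT00000018447), the desaturase that makes oleate, lay between 409 and 772 in controls (median 618) and between 457 and 759 in the exposed pups (median 579). All exposed pups lay inside the control range. The log2 fold change was -0.05 (SE 0.15, 95% interval -0.37 to 0.26, limma adjusted p = 0.885; exact permutation p = 0.735), and its sign turned in 5 of 26 alternative settings. Its paralog Scd2, the main desaturase gene of the newborn rodent brain, averaged 41612 ± 2896 normalized counts in controls and 42502 ± 4965 in PTU exposed pups (SD, log2 fold change 0.03, 95% interval -0.18 to 0.23). The counting model divides reads that match both genes between them, and how much that moved Scd was not tested.

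**Figure D2:**
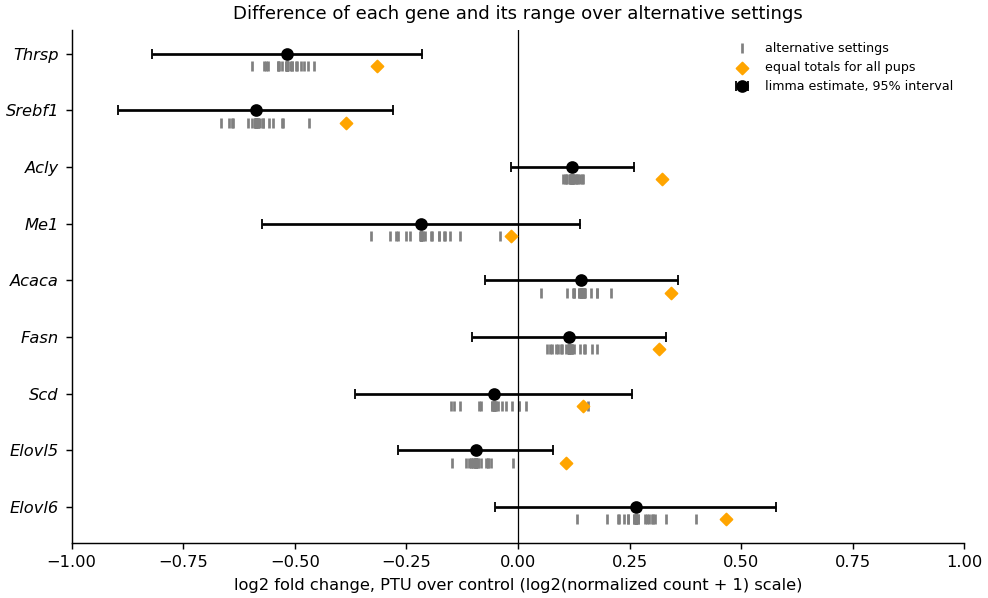
Log2 fold change (x axis, PTU over control) of the 9 genes from limma with its 95% interval (black), and below each the value under 26 alternative settings (grey ticks), of which equal totals for all pups is an orange diamond. The intervals of Thrsp and Srebf1 lie below 0 and those of the 7 enzymes include 0, and equal totals lie above the other settings in all but Scd, where the choroid plexus covariate gives 0.16 beside 0.15.

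The 9 genes did not vary as 1 block from pup to pup. PTU exposed pup 1 was the highest of 13 pups for 3 genes (Acaca, Elovl5, Elovl6) and the lowest for 2 (Thrsp, Srebf1). After each group's mean was taken off, Srebf1 and Fasn had a positive correlation that did not pass the adjusted threshold (Pearson r = 0.65, permutation p = 0.0261, adjusted p = 0.196; Spearman rho = 0.77, permutation p = 0.00497, adjusted p = 0.0745; n = 13). Without the 2 pups farthest from the median of Srebf1, PTU exposed pups 1 and 5, r was 0.77, and r was 0.91 in the 7 controls and 0.47 in the 6 PTU exposed pups.

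Srebf1 and Elovl6 had a negative correlation that did not pass it either (r = -0.70, permutation p = 0.0223, adjusted p = 0.196; rho = -0.46, permutation p = 0.132, adjusted p = 0.496). Without PTU exposed pups 1 and 5, r was -0.45. Srebf1 and Thrsp, the 2 genes with the largest differences, showed r = 0.20 (permutation p = 0.617, adjusted p = 0.841) and rho = -0.01 (permutation p = 0.980, adjusted p = 1). Of the 15 relations computed between Srebf1 or Thrsp and the other genes, 0 had an adjusted p of at most 0.05. The 13 pups share 1 tissue and normalization, so a shared error in scaling would enter both axes.

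**Figure D3:**
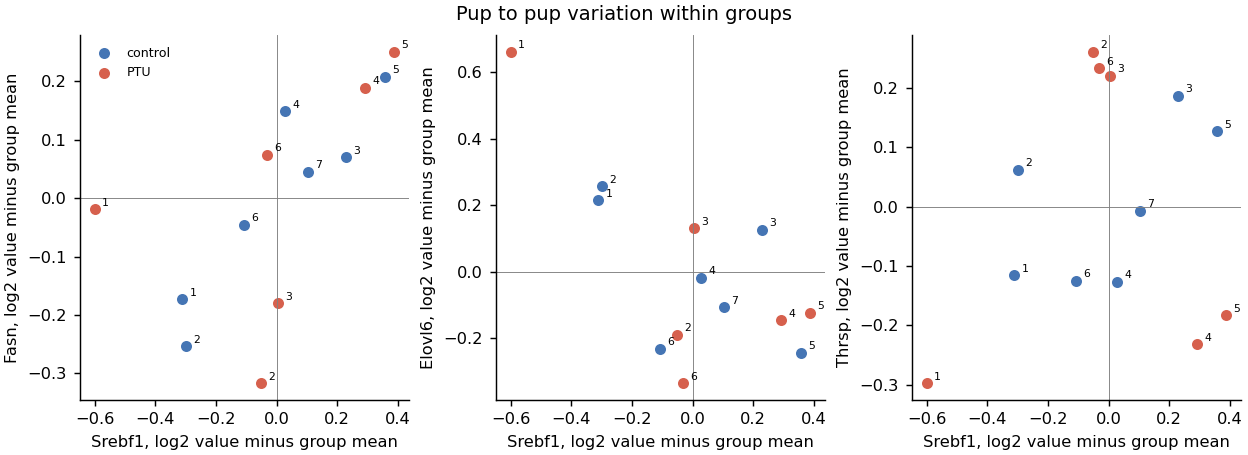
Srebf1 (x axis) against Fasn, Elovl6 and Thrsp (y axes) in the 13 pups, each as log2(normalized count + 1) minus the mean of its own group, with controls in blue, PTU exposed pups in red and replicate numbers beside the points. The correlation with Srebf1 is r = 0.65 for Fasn, r = -0.70 for Elovl6 with PTU exposed pup 1 at the upper left, and r = 0.20 for Thrsp, and none of them passes the adjusted threshold.

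Among the genes whose pattern over the 13 pups was most like that of Srebf1, out of 11086 named rows with a mean of at least 100 and with group means taken off, were Irs2 (r = 0.96), an adaptor of the insulin receptor, Bmf (r = 0.95), a gene of cell death, Qars1 (r = 0.91) and Lancl1 (r = 0.91). Irs2 averaged 3173 normalized counts in controls and 2808 in PTU exposed pups, and Bmf 746 and 580 (log2 fold changes -0.18 and -0.38, limma adjusted p = 0.348 and 0.231). For Thrsp the closest rows were Snapc3 (r = 0.82), Kin (r = 0.81), Amotl1 (r = 0.79), Cep57l1 (r = 0.79) and RGD1311847 (r = 0.79), whose own log2 fold changes lay between -0.09 and 0.09. Likeness ranked over so many rows is a description of these pups and carries no test.

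Around the 9 genes, 109 further genes of lipid metabolism were counted in 9 lists, of which 99 had a row. Of these, 44 were higher and 55 lower after PTU exposure, with a median log2 fold change of -0.03. The split was 78 higher and 21 lower with equal totals for all pups, where 78.5% of all rows were higher, and 59 and 40 with a score of choroid plexus markers as a covariate, where 51.9% of all rows were higher. At an unadjusted p under 0.05, 14 of 99 were counted (14.1%), 7 higher and 7 lower, a share below the 16.3% of all rows. That even split depended on the setting. With equal totals 9 were counted higher and 0 lower, beside 1584 and 81 of all rows. With the choroid plexus covariate 13 were counted higher and 3 lower, beside 1000 and 1003 of all rows. None of the 99 passed the adjusted threshold in limma (smallest adjusted p = 0.122), and 0 had groups that did not overlap.

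Among the 13 measured regulators of the SREBP and LXR pathways, 4 were higher and 9 lower, against 10 and 3 under equal totals and 7 and 6 with the choroid plexus covariate. Nr1h2, which encodes the oxysterol receptor LXRβ, a known activator of Srebf1, averaged 1113 ± 130 normalized counts in controls and 920 ± 96.5 in PTU exposed pups (log2 fold change -0.27, adjusted p = 0.193) and was the 1 gene of the list with an unadjusted p under 0.05. Srebf2, the paralog that drives cholesterol synthesis, had the highest mean of the list and averaged 4976 ± 274 and 4906 ± 516 (log2 fold change -0.03, 95% interval -0.19 to 0.14). Mlxipl, Pparg and Mid1ip1, the paralog of Thrsp, had no row among those analysed here.

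Of 11 further genes that supply acetyl-CoA and NADPH, 8 were higher and 3 lower. Under equal totals the split was 10 and 1, where 78.5% of all rows were higher, and with the choroid plexus covariate 9 and 2. Mdh1, the cytosolic malate dehydrogenase, averaged 1804 ± 135 in controls and 2319 ± 379 in PTU exposed pups (log2 fold change 0.35, adjusted p = 0.146). Taldo1 of the pentose phosphate pathway (0.30, adjusted p = 0.220) and the mitochondrial acetyl-CoA synthetase Acss1 (-0.27, adjusted p = 0.261) were the others with an unadjusted p under 0.05. Pgd, with the highest mean of the list, had a log2 fold change of 0.08. The 5 genes of malonyl-CoA turnover and mitochondrial synthesis were higher in 1 case and lower in 4, all at an unadjusted p above 0.05 (Mlycd, with the highest mean, -0.13). Under equal totals 4 of them were higher and 1 lower, and with the choroid plexus covariate 3 and 2.

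Desaturases and elongases other than the members were mostly lower. Of 5 desaturases, 1 was higher and 4 lower, and 2 had an unadjusted p under 0.05, both lower, beside 8.20% of all rows lower at that p. Under equal totals and with the choroid plexus covariate, 0 of 5 had such a p. Fads2, the first desaturase in the synthesis of long polyunsaturated fatty acids, averaged 4180 ± 311 in controls and 3567 ± 295 in PTU exposed pups (log2 fold change -0.23, adjusted p = 0.174), and Fads3 averaged 419 ± 68.9 and 321 ± 88.7 (-0.42, adjusted p = 0.258). Of 9 elongation genes, 2 were higher and 7 lower, none at an unadjusted p under 0.05, with Hacd3, of the highest mean, at 0.12. With equal totals for all pups, 3 of 5 desaturases and 7 of 9 elongation genes were higher, beside 78.5% of all rows, and with the choroid plexus covariate 6 of 9 elongation genes were higher.

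Genes of fatty acid oxidation, the opposite pathway, were higher in 3 of 14 cases and lower in 11, and higher in 7 and lower in 7 both under equal totals (78.5% of all rows higher) and with the choroid plexus covariate (51.9%). Crat, which moves acyl groups between CoA and carnitine, averaged 1270 ± 125 in controls and 1000 ± 50.1 in PTU exposed pups (log2 fold change -0.34, adjusted p = 0.122). Acadl (-0.42, adjusted p = 0.208) and Etfdh (-0.28, adjusted p = 0.287) also had an unadjusted p under 0.05, and Hadha, with the highest mean, was at -0.13. These were 3 of 14 genes at such a p, all lower, beside 8.20% of all rows lower. Under equal totals 0 genes of the list had such a p, and with the choroid plexus covariate 2, both lower.

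In cholesterol synthesis, the pathway that Srebf2 serves, 14 of 18 genes were higher and 4 lower. Under equal totals the split was 17 and 1, where 78.5% of all rows were higher, and with the choroid plexus covariate 13 and 5. Fdft1, which makes squalene, averaged 2556 ± 223 in controls and 3033 ± 562 in PTU exposed pups (log2 fold change 0.23, adjusted p = 0.291), and Ebp, a low row at 59.1 ± 22.4 and 104 ± 24.9, had 0.83 (adjusted p = 0.151). Hmgcs1, with the highest mean, was at 0.17. Without PTU exposed pup 1 the list was higher in 10 cases and lower in 8.

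Genes that activate fatty acids and build glycerolipids were higher in 7 of 17 cases and lower in 10, and under equal totals in 14 and 3. Acsl4, which activates arachidonic acid, averaged 482 ± 87.5 in controls and 786 ± 415 in PTU exposed pups (log2 fold change 0.59, adjusted p = 0.214), and Agpat3, with the highest mean, had -0.03. Of 7 genes of uptake and binding, 4 were higher and 3 lower, and without PTU exposed pup 1 this became 2 and 5. Slc27a4, a fatty acid transporter, had 0.33 (adjusted p = 0.254), and Fabp7, the fatty acid binding protein of radial glia and the highest of the list, had -0.24 (adjusted p = 0.437).

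**Figure D4:**
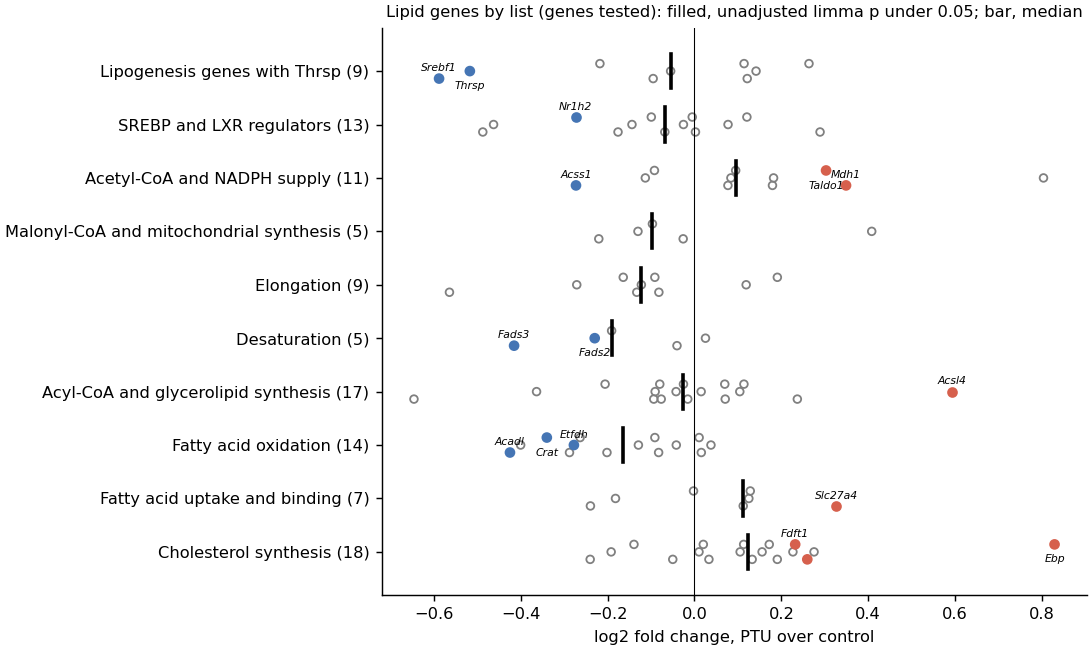
Log2 fold change (x axis, PTU over control) of each tested gene in the 9 lipogenesis genes and in 9 lists of other lipid genes (rows, with the number of genes); filled points are genes with an unadjusted limma p under 0.05, red higher and blue lower in PTU exposed pups, and black bars are medians. Srebf1 and Thrsp lie at the left edge of the top row, and the medians of the lists run from -0.19 for desaturation to 0.12 for cholesterol synthesis.

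The captured tissue carried the markers of the VZ, and the ranges of each marker list overlapped between the groups. All 9 markers of progenitors and radial glia were measured and lower in PTU exposed pups, 5 of 9 at an unadjusted p under 0.05 (8.20% of all rows lower and 8.11% higher at that p), with a summed level of 74726 to 104143 normalized counts in controls and 61911 to 82327 in PTU exposed pups. All 6 astrocyte markers were lower, 3 of them at such a p (37535 to 48650 and 26376 to 40388), and all 8 choroid plexus markers were lower, 5 of them at such a p (50865 to 142009 and 23551 to 101793). All 7 neuronal markers were higher, 4 of them at such a p (38791 to 60443 and 54889 to 76054), and so were all 8 of the oligodendrocyte lineage, 2 of them at such a p (5935 to 11609 and 8420 to 14162). Endothelial markers were higher in 4 and lower in 1 of 5, microglial ones higher in 4 and lower in 2 of 6 (1 of the lower at an unadjusted p under 0.05), and 2 of 2 fibroblast markers were lower. None of these markers passed the adjusted threshold. Adipocyte markers (Adipoq, Lep, Plin1, Cidec) and blood markers (Hba-a1, Hbb, Alas2) had no row among those analysed here.

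By the study's account no choroid plexus cells were captured, although all 8 of their markers were measured. The place of this mixture in the values of Thrsp and Srebf1 was examined after the data had been seen, in limma with a score of the 8 choroid plexus markers as a covariate and in 6 correlations. With the covariate, Thrsp had a log2 fold change of -0.60 and Srebf1 -0.53 (adjusted p = 0.230), while Elovl6 had 0.40 and Me1 -0.04. Within groups, the summed choroid plexus level showed r = 0.05 with Srebf1 and r = -0.26 with Thrsp (0.62 in controls and -0.61 in PTU exposed pups). The neuronal level showed r = -0.55 with Srebf1 (permutation p = 0.0540, adjusted p = 0.264), at -0.52 in controls and -0.64 in PTU exposed pups. With Thrsp the neuronal level showed r = -0.48, at -0.84 in controls and -0.31 in PTU exposed pups. The progenitor level showed r = 0.32 with Srebf1 and r = 0.12 with Thrsp, and none of the 6 relations had an adjusted p of at most 0.05. Without control pup 5 and PTU exposed pup 1, the neuronal relation was r = -0.22 with Srebf1 and r = -0.32 with Thrsp. The part of neurons and progenitors in the differences of Thrsp and Srebf1 was not tested beyond these correlations, and that of astrocytes was not tested.

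The groups overlapped in depth. Estimated from the step between low values, it was 22.3 to 43.5 M reads (M, mega) in controls (median 35.2) and 28.4 to 44.4 M in the exposed pups (median 34.3). The 3 rows with the highest means carried no gene name and held 32.4 to 60.1% of all normalized counts in controls and 23.9 to 57.0% in PTU exposed pups. Equal totals without these rows gave a median of all rows of 0.01, beside 0.20 with them. Relative to that median of 0.20, Thrsp lay at -0.52 and Srebf1 at -0.59 under equal totals. That scaling divides each pup by 1 factor and so moves all rows nearly alike. These values therefore repeat those of the main scaling and do not test the effect of scaling.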

How the data were processed

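Total RNA of the VZ, taken by laser capture from 7 control pups and 6 pups of PTU dams, was sequenced with a stranded, rRNA-depleted library kit. By the submitters' processing notes and the methods, the authors trimmed reads with Trimmomatic, aligned them with STAR 2.7.8a to mRatBN7.2/rn7, quantified transcripts by the Partek expectation/maximization model, in which a read matching several transcripts is divided among them, and scaled each pup by a median ratio. The deposited values are thus a signal, named normalized counts here, that need not be whole. From 88.1 to 89.7% of values between 20 and 150 were whole multiples (within 0.02) of 1 step per pup, too few to recover whole reads. The step gave the estimated depth, and counting errors cover the sampling of reads only. The methods name a RefSeq annotation, while rows carry Ensembl identifiers. Gene names came from the table, and 1488 rows have none. The authors' own comparison, made with DESeq2 (p-values, FDR, ratios and fold changes), was not used.

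After rows with a mean under 10 were left out, log2(normalized count + 1) was compared with limma 3.58.1 in R 4.3.3 (empirical Bayes with a variance trend, no covariate, 13 pups, two-sided), with Benjamini-Hochberg adjustment over all 14606 rows and a threshold of 0.05. Single genes were given an exact permutation test (two-sided) over the 1716 ways to divide 13 pups. Correlations were tested by 100000 permutations within groups (two-sided) of values centred by group. The tests were checked on simulated data. The 9 genes, the lipid lists and the marker lists were chosen with earlier results of these data known, so no p of a group difference was adjusted over a list alone and no list was tested. Correlation p-values were adjusted over the 15 relations of Srebf1 or Thrsp with the other genes, and over the 6 added with marker lists. Named were all 9 genes, list genes with an unadjusted limma p under 0.05 or the highest mean of their list, and the 5 rows most like Thrsp and Srebf1. Of the genes this rule names, 2 are not reported here.

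Replicate numbers were taken from the labels, and same-numbered pups are not littermates. Alternatives were pseudocounts of 0.1 and 10, no filter, a mean of at least 100, other scalings (equal totals, equal totals without the 3 highest rows, the same upper quartile, quantile normalization), rows of a gene summed, pups weighted by quality, no variance trend, a replicate block, each pup left out in turn and, chosen after seeing the data, a choroid plexus covariate. Upstream sequences came from a RefSeq table on GRCr8. Python 3.11.15 was used for other steps, with pandas 2.3.3, numpy 2.4.6, matplotlib 3.10.9 and scipy 1.17.1.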

Additional observations from a re-analysis of the deposited data

How the results depend on the processing

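Thrsp and Srebf1 were lower in PTU exposed pups under all 26 alternatives, with log2 fold changes from -0.60 to -0.32 (adjusted p from 0.0613 to 0.568) and from -0.67 to -0.39 (adjusted p from 0.0475 to 0.416). Whether same-numbered pups shared a step of handling is not given by the labels and was not tested. Correlations of same-numbered pups ran from -0.07 to 0.20, and 4 of 12 pups were most like their own number. With the replicate number as a block, 18 rows passed the adjusted threshold in limma, among them Srebf1 at -0.57 (adjusted p = 0.0475). Rows at an unadjusted p under 0.05 numbered 2955 with the block and 2383 without it, and Scd turned to 0.0021 with it. Counts of rows past the threshold were 40 with pups weighted by quality and 4 with the choroid plexus covariate, and ranged from 0 to 179 with single pups left out (7 without control pup 6, 179 without PTU exposed pup 2); of the 9 genes none passed in these. Scd turned to 0.16 with the covariate, and ranged from -0.15 to 0.017 with single pups left out (0.0021 without control pup 7, 0.017 without PTU exposed pup 6). With equal totals for all pups, 81 rows were lower at an unadjusted p under 0.05, 1584 were higher, Scd was 0.15 and Elovl5 0.11, and in the exact permutation test Thrsp gave -0.32 (p = 0.193), Acly 0.32 (p = 0.0787) and Fasn 0.32 (p = 0.0291). That scaling moved the medians of the lists to 0.13 (regulators), 0.30 (supply), 0.08 (elongation), 0.01 (desaturation), 0.18 (glycerolipids), 0.04 (oxidation) and 0.32 (cholesterol). Correlations turned sign without centring for Srebf1 with Acly (-0.42), Scd (0.0076) and Elovl5 (0.14) and Thrsp with Elovl5 (0.049), and without the 2 farthest pups for Srebf1 with Me1 (0.013), Scd (0.27) and Elovl5 (0.31) and Thrsp with Elovl6 (0.071). The cause of these shifts was not tested.

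With 6 and 7 pups from single litters, the 95% intervals of the enzymes leave room for log2 differences of up to 0.58 (Elovl6). The RNA was partly degraded, and markers of several cell types differed in mean between groups without passing the adjusted threshold.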
